A study of Homo sapiens with 4 samples.

Results

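Accessible chromatin at 10 genes of the RGS (regulator of G protein signalling) family was examined in A375 cells, an established human melanoma line, after octanoate or vehicle. The genes were RGS20, RGS17, RGS19, RGS2, RGS3, RGS16, RGS6, RGS7, RGS10 and RGS12. A region belonged to a gene if it overlapped the gene's RefSeq span in GRCh38, extended by 10 kb on both sides, and this gave 138 of the 125986 regions in the authors' deposited table. RGS20 was chosen by the fold change of 1 of its regions in this same comparison, so its values are given as a description, and the other genes were picked as relatives of RGS20. The octanoate group had 2 libraries from cells given 1 mM octanoate, a medium-chain fatty acid, for 48 h, and the vehicle group had 2 libraries from cells given isopropanol for the same time. All 4 came from the same cell line, and the labels do not say whether the libraries of a group came from separate cultures, so the deposited p-values measure the spread between these libraries, which may be technical. Tn5 transposase cuts open DNA in this assay (ATAC-seq), so reads pile up where chromatin is accessible.

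RGS proteins switch off signalling by heterotrimeric G proteins. A receptor loads a G alpha subunit with GTP, and the RGS domain speeds the hydrolysis of that GTP, which shortens the signal. The family is sorted into subfamilies: RGS20, RGS17 and RGS19 form the RZ group, which carries a string of cysteines near the N terminus, RGS2, RGS3 and RGS16 belong to the R4 group, RGS6 and RGS7 to the R7 group, and RGS10 and RGS12 to the R12 group. Pigment cells carry G protein-coupled receptors such as the melanocortin and endothelin receptors.

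The authors' deposited table holds 1 mean normalized read count per region over the 4 libraries, a log2 fold change of octanoate over vehicle with its standard error, a Wald score and p-values, and no value for a single library. The level of a region in each group was therefore derived here from its mean and its fold change, and is called the implied level. An adjusted p was usable for 11185 regions, the weakest with a mean of 63.8 normalized reads, and these are called tested. Of the 138 RGS regions, 19 were tested and 119 were too weak. Over all tested regions the deposited log2 fold changes had a median of 0.19 and 85.7% were above 0, so each value below is read against this shift and not against 0 alone. The start of the melanocyte regulator MITF had an open region with a mean of 168 normalized reads, that of PAX3 one with 58.2 and that of DCT one with 30.0, while no region lay within 1 kb of a listed start of the pigment genes MLANA, TYR and TYRP1, of the leukocyte gene PTPRC or of the hepatocyte gene ALB.

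No RGS region had an adjusted p under 0.05, the threshold used here (DESeq2, Benjamini-Hochberg). The count was 0 of 19 tested regions, against 1.02% of all tested regions. At an unadjusted p under 0.05, 1 of the 19 was higher after octanoate and 1 was lower, where 14.8% of all tested regions were higher and 0.107% were lower. With the weak regions included, 6 of 138 were higher and 1 was lower, where 3.58% of all 125986 regions were higher and 0.179% were lower. The higher ones lay in RGS7 (5 regions) and RGS3 (1 region), and the lower one was the RGS20 region by which the gene was chosen, so nothing is read from the lower counts.

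RGS20, also known as RGSZ1, is a GTPase-activating protein that prefers the G alpha subunit encoded by GNAZ. It spans 108 kb on chromosome 8 (53851795 to 53959303) and had 14 regions, 13 of them overlapping the span. The region that led to its choice lies inside the gene, 52.8 kb from the lower end of the span (chromosome 8, 53904562 to 53906022, 1461 bp wide). Its implied level was 111 normalized reads with vehicle and 64.6 with octanoate. The authors' deposited table gave it a log2 fold change of -0.77 with a standard error of 0.22, a 95% interval of -1.21 to -0.34. On the linear scale the octanoate level was 0.585 of the vehicle level, with an interval of 0.431 to 0.792. This was both the lowest log2 fold change and the lowest Wald score, -3.46, among all tested regions. Its adjusted p in the authors' deposited table was 0.0508 (DESeq2), just above the threshold, and its unadjusted p was 0.000542. Relative to the tested median its log2 fold change was -0.96. As the region was selected on this fold change, its p-values are those of a chosen value and support nothing further.

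Of the other 4 tested RGS20 regions, 3 lay slightly below 0, and 0.20 to 0.31 below the tested median, and 1 lay above both. A 2470 bp region 27.9 kb into the span had implied levels of 119 with vehicle and 109 with octanoate, and the authors' deposited table listed it at -0.12 with a standard error of 0.20. Its neighbour, 2005 bp wide and 32.7 kb into the span, was the 1 tested RGS20 region above 0, with implied levels of 98.2 and 127, a deposited log2 fold change of 0.38 (standard error 0.20) and an unadjusted p of 0.0631. These 2 regions and the low one had similar means, between 87.6 and 114 normalized reads, and the low one lay 18.1 kb from the nearer of the others. The region 92.9 kb into the span had the highest signal of the gene per kb, 118, and the same level in both groups, 133 and 132, with a deposited log2 fold change of -0.013 (standard error 0.18). The fifth tested region lay outside the span, overlapped the neighbouring gene ATP6V1H, which encodes a subunit of the vacuolar proton pump, and was listed at -0.06 (standard error 0.24) in the authors' deposited table. The 4 other tested regions thus ran from -0.12 to 0.38.

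The 9 weak RGS20 regions had means of 3.34 to 36.1 normalized reads, and their deposited log2 fold changes ran from -0.64 to 1.53, with 5 above 0. Their standard errors of 0.35 to 1.38 mean that a log2 fold change of 0.68 to 2.71 would have been needed for an unadjusted p of 0.05, and their p-values ran from 0.14 to 0.93. One of them lay only 0.865 kb beyond the low region, with a mean of 4.94 and a deposited log2 fold change of 1.53 (standard error 1.04), so the direction on that side is not resolved at this depth. At the lower end of the span a weak region of 447 bp overlapped the gene boundary, with a mean of 9.60 and a deposited log2 fold change of 0.30 (standard error 0.70). Over all 14 regions 6 were above 0, the median was -0.04, and the summed implied signal was 646 with vehicle and 619 with octanoate, a log2 ratio of -0.06. Without the low region by which the gene was chosen, the sums were 536 and 555, a log2 ratio of 0.05. The same ratio of sums was 0.19 over all RGS regions and 0.21 over all nuclear regions, so both RGS20 ratios lay below the general shift.

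**Figure D1:**
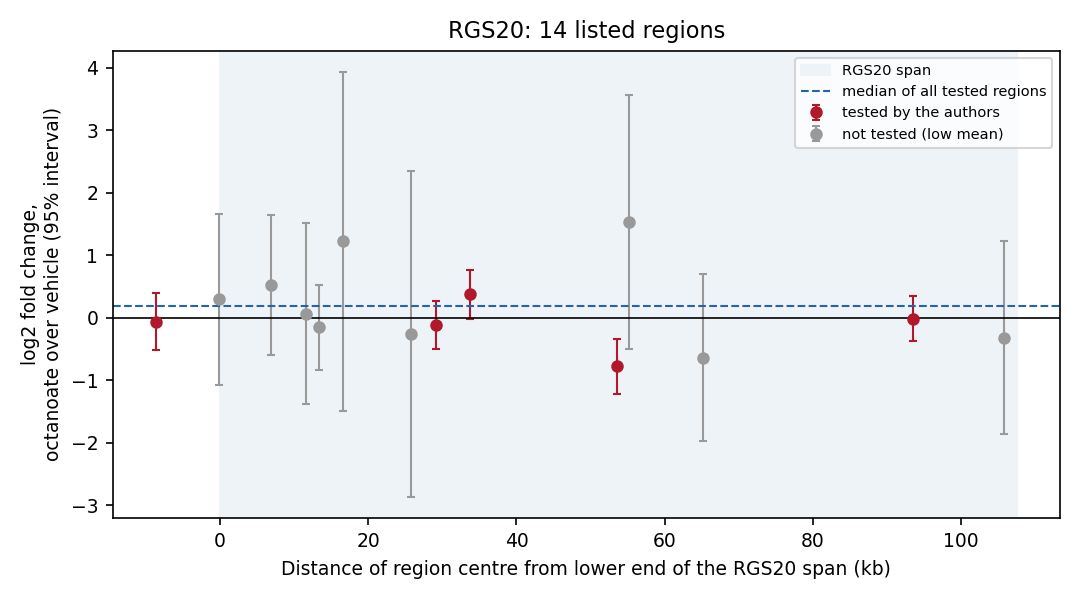
Deposited log2 fold change of octanoate over vehicle (y axis, bars are 95% intervals from the deposited standard error) for the 14 RGS20 regions against the distance of each region's centre from the lower end of the gene span (x axis, kb). Red points are tested regions and grey points are weaker ones; 1 tested region lies at -0.77 while the other 4 lie between -0.12 and 0.38, and the dashed line is the tested median of 0.19.

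The median deposited log2 fold change of the 138 regions was 0.23 and 72.5% were above 0, where all nuclear regions had 0.23 and 72.1%. For the 19 tested regions the median was 0.18 and 13 were above 0, where all tested nuclear regions had 0.19 and 85.7%; of the 6 below 0, RGS20 held 4. Without RGS20, 12 of 14 tested regions were above 0. The genes differed in their medians, from -0.04 in RGS20 to 0.51 in RGS12. RGS2, RGS3 and RGS16 lay between 0.11 and 0.15, RGS6 was at 0.22, and RGS10, RGS17, RGS7 and RGS19 ran from 0.30 to 0.48. The medians rest on 2 to 46 regions per gene, with a median standard error of 0.60 per region, so no order of the genes was tested. By subfamily, the medians were 0.25 over 26 RZ regions, 0.14 over 29 R4 regions, 0.29 over 71 R7 regions and 0.38 over 12 R12 regions. Over tested regions alone they were -0.04 for RZ (8 regions), 0.26 for R4 (6), 0.42 for R7 (3) and 0.22 for R12 (2). RGS20 held 14 of the 26 RZ regions and 5 of the 8 tested ones, among them the region by which it was chosen.

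**Figure D2:**
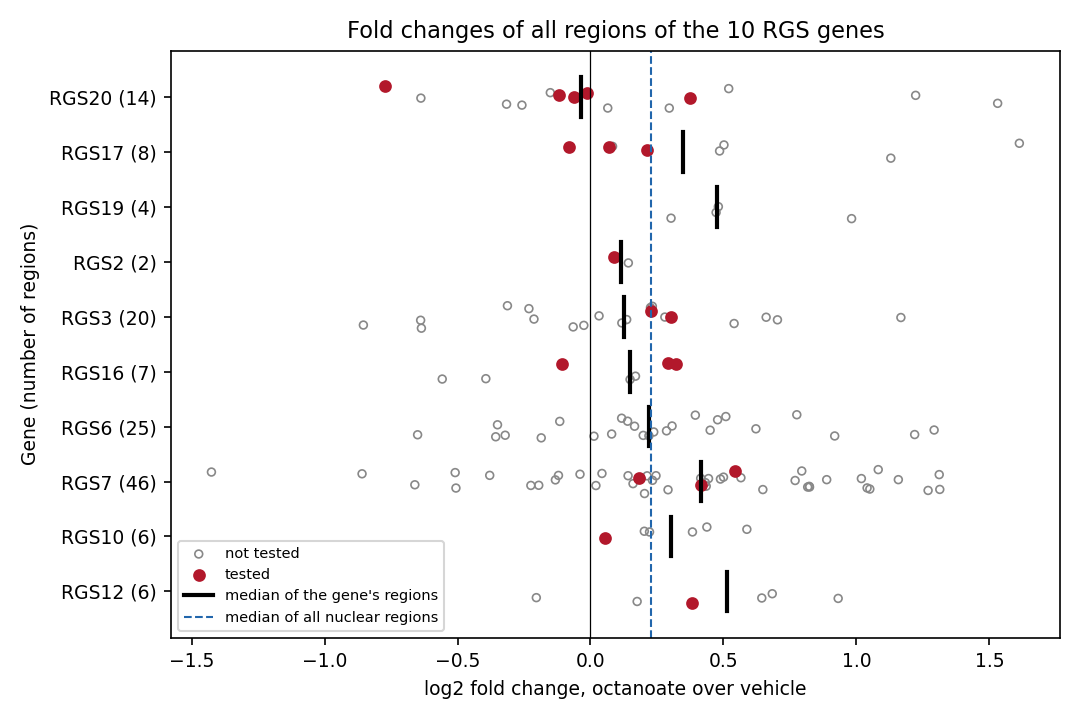
Deposited log2 fold change of octanoate over vehicle (x axis) of every region of the 10 RGS genes (y axis, number of regions in brackets; vertical jitter has no meaning). Filled points are tested and open points are not, black bars are each gene's median, and the dashed line is the median of all nuclear regions, 0.23; RGS20 alone has a median below 0.

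**Figure D3:**
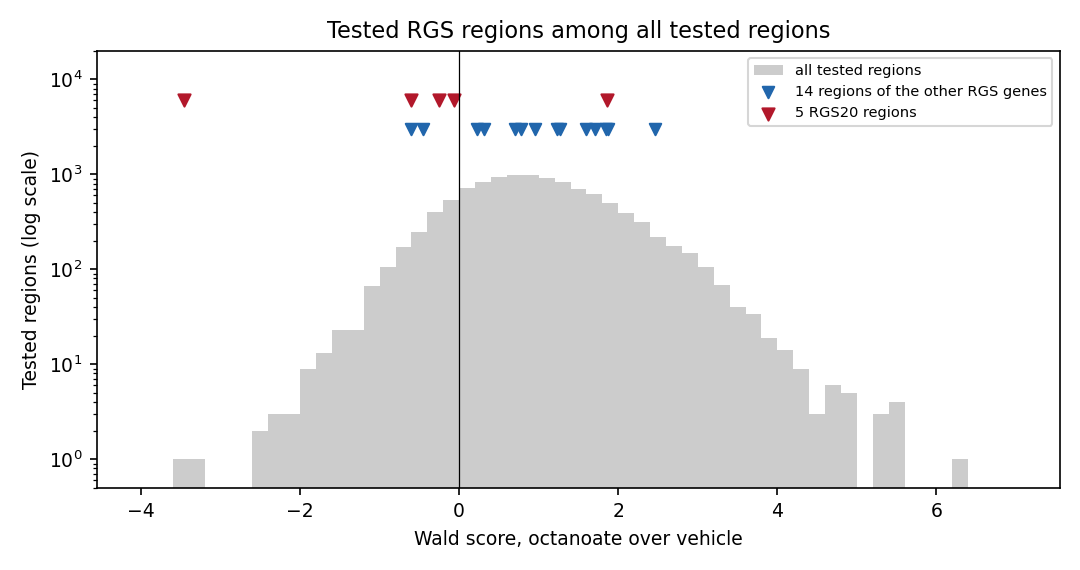
Number of tested regions (y axis, log scale) by deposited Wald score (x axis), with the 19 tested RGS regions as triangles at arbitrary heights. The lowest RGS20 region sits at -3.46, the left end of the distribution, and the remaining 18 lie between -0.61 and 2.46.

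The starts of the genes were examined for the 9 genes other than RGS20 in the RefSeq promoter table (GRCh38.p14), which gave 24 start sites. Of these, 9 lay inside an accessible region, 6 had a region within 1 kb, and 9 had none within 1 kb. The 9 covered starts belonged to RGS2, RGS7, RGS10, RGS12, RGS16, RGS17 and RGS19. RGS3 and RGS6 had no covered start among those listed. For RGS6 this was by a few bases, with a start at 71932171 and a weak region from 71932176 to 71932646. That region also overlaps the gene LOC124903404. Open starts were rich in CpG dinucleotides: the 250 bases before the 9 covered starts held 22 to 42 CpGs with a median of 34, and those before the 9 starts with no region nearby held 1 to 29 with a median of 8. The exception was a start of RGS3 with 29 CpGs and no region. Over all 34943 listed starts the medians were 21 CpGs for the 51.8% that were covered and 3 for the 39.4% with no region within 1 kb. Starts of 1 gene can share bases, as those of RGS7 do, so these counts are a description.

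Per kb of region, the start of RGS16 was the most accessible (121 normalized reads per kb), followed by RGS2 (103) and RGS7 (99.1). The start regions of RGS12 (53.6), RGS10 (47.2), RGS19 (47.2) and RGS17 (36.1) lay below the median of tested regions, 70.9 per kb, and above the median of all nuclear regions, 27.8 per kb. The regions within 1 kb of starts of RGS3 and RGS6 had 30.1 and 24.7 per kb. The spread between libraries was not available for these means, so neighbours in this order cannot be told apart by a test.

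**Figure D4:**
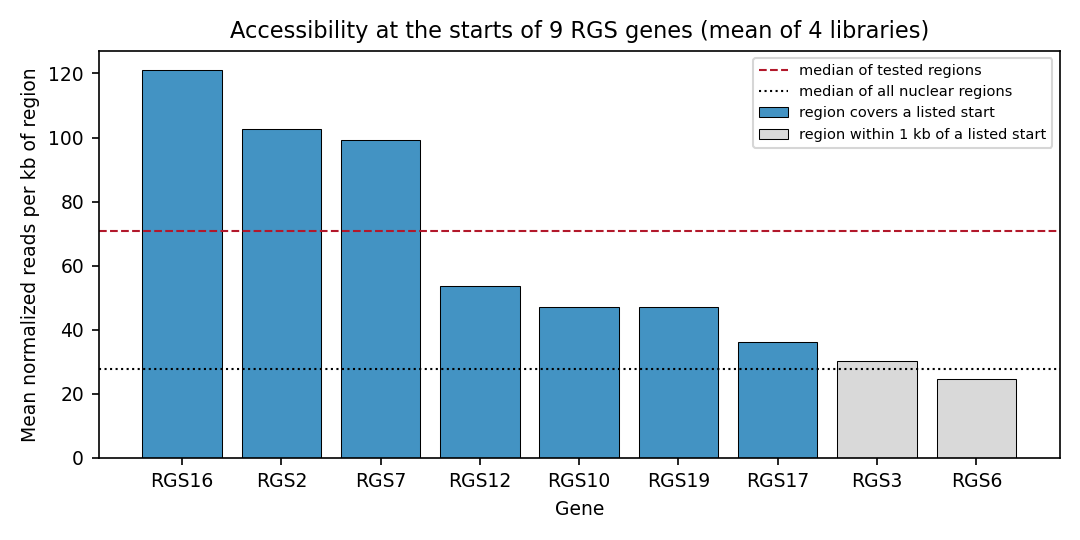
Mean normalized reads per kb of region over the 4 libraries (y axis) for the region at or near a listed start of 9 RGS genes (x axis); no error is drawn, since single libraries are not listed in the table. Blue bars are regions that cover a start and grey bars regions within 1 kb of one, and RGS16, RGS2 and RGS7 exceed the dashed median of tested regions, 70.9.

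Sequences of the 250 bases before the outermost listed start are shown for the 3 most accessible starts, for RGS17, the RZ gene with a tested start region, and for RGS3, whose outermost start had no region within 1 kb. They are from RefSeq (GRCh38.p14), 5′ to 3′ on the strand of the gene, ending at the base before the start. Capitals mark matches on either strand to any of 7 short motifs: the cAMP response element half-site TGACGT, the AP-1 motif TGANTCA, the E-box CACGTG, the GC box GGGCGG, the CCAAT box CCAAT, the TATA box TATAAA and the ETS motif CCGGAAG. Of all listed promoters of this length, 7.09% hold the first, 6.59% the AP-1 motif, 6.32% the E-box, 42.5% the GC box, 32.0% the CCAAT box, 10.8% the TATA box and 8.48% the ETS motif.
RGS16, chr1:182604390-182604639, minus strand: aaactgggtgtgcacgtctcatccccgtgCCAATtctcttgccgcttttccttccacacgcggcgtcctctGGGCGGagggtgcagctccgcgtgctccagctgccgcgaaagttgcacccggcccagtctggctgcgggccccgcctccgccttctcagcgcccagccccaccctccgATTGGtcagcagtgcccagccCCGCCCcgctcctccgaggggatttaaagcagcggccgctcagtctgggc
RGS2, chr1:192808789-192809038, plus strand: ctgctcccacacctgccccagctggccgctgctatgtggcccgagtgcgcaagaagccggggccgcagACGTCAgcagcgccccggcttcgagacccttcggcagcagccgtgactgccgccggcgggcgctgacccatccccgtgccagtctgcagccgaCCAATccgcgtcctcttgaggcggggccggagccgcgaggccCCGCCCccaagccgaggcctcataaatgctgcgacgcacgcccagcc
RGS7, chr1:241357231-241357480, minus strand: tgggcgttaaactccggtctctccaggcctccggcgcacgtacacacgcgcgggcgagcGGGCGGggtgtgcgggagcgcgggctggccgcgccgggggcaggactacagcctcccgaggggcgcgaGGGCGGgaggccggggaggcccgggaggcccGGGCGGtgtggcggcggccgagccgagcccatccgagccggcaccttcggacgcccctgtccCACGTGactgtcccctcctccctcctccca
RGS17, chr6:153131283-153131532, minus strand: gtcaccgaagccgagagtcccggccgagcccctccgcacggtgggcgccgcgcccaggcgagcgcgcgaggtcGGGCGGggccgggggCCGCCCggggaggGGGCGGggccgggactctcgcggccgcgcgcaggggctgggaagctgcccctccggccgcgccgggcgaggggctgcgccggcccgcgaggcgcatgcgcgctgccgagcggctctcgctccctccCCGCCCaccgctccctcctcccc
RGS3, chr9:113444480-113444729, plus strand: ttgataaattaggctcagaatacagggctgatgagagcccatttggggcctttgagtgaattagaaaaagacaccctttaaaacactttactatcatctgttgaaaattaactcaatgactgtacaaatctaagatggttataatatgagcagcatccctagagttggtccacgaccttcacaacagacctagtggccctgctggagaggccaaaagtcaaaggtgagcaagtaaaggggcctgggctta
The 4 accessible promoters hold at least 1 GC box each: RGS2 has 1, RGS16 has 2, RGS7 has 3 and RGS17 has 4. RGS2 also holds 1 cAMP response element half-site and 1 CCAAT box, RGS16 holds 2 CCAAT boxes, and RGS7 holds 1 E-box. The RGS3 stretch has 1 CpG, a GC content of 42.8% and no match to the 7 motifs in this window. A match is a string of letters and not a measured binding site.

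The 6 genes with a tested start region had deposited log2 fold changes between 0.05 and 0.38 there. None of the 6 passed the threshold, beside 1.02% of all tested regions, so nothing is read from this count. The RGS2 start region, the RGS region with the highest mean (chromosome 1, 192807442 to 192810603), had implied levels of 315 with vehicle and 334 with octanoate and a deposited log2 fold change of 0.09 (95% interval -0.16 to 0.33). The RGS7 start region (chromosome 1, 241356183 to 241358397) had implied levels of 206 and 233 and a deposited log2 fold change of 0.18 (interval -0.10 to 0.47). At the RGS16 start (chromosome 1, 182603678 to 182604917) the implied levels were 133 and 167, with a deposited log2 fold change of 0.32 (interval -0.02 to 0.66). RGS17 (0.07, standard error 0.23) and RGS10 (0.05, standard error 0.24) were nearest to 0 among the tested starts in the authors' deposited table, and RGS12 had the highest value, 0.38 (standard error 0.20). All 6 values were above 0 and all 6 intervals included 0, but 4 of the 6 (RGS2, RGS7, RGS10 and RGS17) lay below the tested median of 0.19. The weak regions near starts of RGS3 and RGS6 were listed at -0.85 (standard error 0.73) and -0.32 (standard error 0.62).

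Within the RZ group, RGS17, also known as RGSZ2, acts on the same class of G alpha subunits as RGS20. It spans 127 kb on chromosome 6 (153004459 to 153131282) and had 8 regions, 7 above 0 in the authors' deposited table. Its highest mean, 139 normalized reads, lay in the flank at a start of MTRF1L, which encodes a mitochondrial translation release factor, and this region was listed at -0.08 (standard error 0.18). A broad tested region within the gene (chromosome 6, 153057856 to 153060166) had implied levels of 59.6 and 69.0 and a deposited log2 fold change of 0.21 (standard error 0.27). The gene's median was 0.35, and its highest value, 1.61, belonged to a weak region with a standard error of 0.95 and a mean of 5.99. RGS19, also known as GAIP, acts on G alpha i subunits, and its 4 regions on chromosome 20 (gene span 64073181 to 64079964) were all below the minimum mean of tested regions. They were listed at 0.30 to 0.98 with standard errors of 0.29 to 0.65, and 4 of 4 were above 0. Its start region, at 0.30 (standard error 0.45), is shared with OPRL1, the nociceptin receptor gene, 2 others overlap TCEA2, and the fourth overlaps OPRL1 and LKAAEAR1. All 4 thus overlap another gene, and their signal cannot be assigned to RGS19 alone. The highest mean of the 4, 52.6 normalized reads, was in a TCEA2 region (64062734 to 64063361) listed at 0.48 (standard error 0.29).

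In the R4 group, RGS2 is known as an inhibitor of signalling through Gq, and it spans 3.24 kb on chromosome 1 (192809039 to 192812275). Its 2 regions were listed at 0.09 and 0.14 in the authors' deposited table. RGS16, which acts on G alpha i and Gq subunits, spans 5.77 kb on chromosome 1 (182598623 to 182604389) and had 7 regions, 3 of them tested. Besides its start, these included a broad region 9.78 kb beyond the gene near a start of LINC01686. It had implied levels of 166 and 154 and a deposited log2 fold change of -0.11 (standard error 0.17). Its interval, -0.44 to 0.23, included 0. RGS3, which has long and short protein forms and acts on G alpha i and Gq subunits, spans 153 kb on chromosome 9 (113444730 to 113597738) and had 20 regions, 12 above 0. Its 2 tested regions, at 0.23 and 0.30 in the authors' deposited table (standard errors 0.24 and 0.19), lie towards the end of the gene. A weaker internal region (chromosome 9, 113479152 to 113479810) had a mean of 46.5 normalized reads, a deposited log2 fold change of 0.66 (standard error 0.32) and an unadjusted p of 0.0389. The lowest RGS3 value, -0.85, had a standard error of 0.73.

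The R7 proteins RGS6 and RGS7 carry a domain that binds the G beta subunit encoded by GNB5, and they act on G alpha i and o subunits, chiefly in neurons. RGS7 spans 582 kb on chromosome 1 (240774742 to 241357230) and had 46 regions, the most of the 10 genes. Of the 46 values in the authors' deposited table, 35 were above 0, and the median was 0.41. Of these, 5 had an unadjusted p under 0.05, all higher after octanoate, which is 10.9% of its regions beside 3.58% of all regions, a difference that was not tested. The tested region of these 5 (chromosome 1, 241156211 to 241157778) had implied levels of 76.9 and 112, a deposited log2 fold change of 0.55 (95% interval 0.11 to 0.98) and an adjusted p of 0.197 (DESeq2). A further tested region (241077099 to 241078016) had a mean of 77.0 normalized reads and a deposited log2 fold change of 0.42 (standard error 0.24, unadjusted p 0.0878). The 4 weak regions with an unadjusted p under 0.05 were listed at 0.79 (240802308 to 240803702), 0.89 (240946937 to 240947356), 1.04 (241212977 to 241213546) and 0.82 (241310337 to 241311728). The pair with the higher means, 49.3 and 53.5 normalized reads, had unadjusted p-values of 0.00824 and 0.00448. A weak region in the other direction (240965392 to 240966137) was listed at -0.66 with a standard error of 0.35 and an unadjusted p of 0.0618. RGS7 also held the lowest value of the 138 regions, -1.43, at a mean of 2.72 and a standard error of 1.57. RGS6, the longest of the genes at 763 kb (chromosome 14, 71867335 to 72630029), had 25 regions, all weaker than the tested minimum. Of these 19 were above 0, and none had an unadjusted p under 0.05. Its highest mean, 60.2 normalized reads, was in a region that also overlaps DPF3, listed at 0.39 (standard error 0.27).

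In the R12 group, RGS10 is a small protein consisting of little more than the RGS domain, and RGS12 is a large one that also carries PDZ, Ras-binding and GoLoco segments. RGS10 spans 42.9 kb on chromosome 10 (119499817 to 119542719), and its 6 regions were all above 0 in the authors' deposited table, from 0.05 to 0.59. The highest of these lay at the far end of the gene (119499151 to 119499885), with implied levels of 36.9 and 55.5 and a standard error of 0.31. RGS12 spans 154 kb on chromosome 4 (3285891 to 3439913) and had 6 regions, 5 above 0. Only 1 of its 5 listed starts was covered, by the tested region from 3291914 to 3293893, with implied levels of 92.3 and 120. A weaker region near the end of the gene had implied levels of 24.1 and 38.7 and a deposited log2 fold change of 0.68 (standard error 0.37, unadjusted p 0.0666).

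Each gene was set beside the other regions within 1 Mb of its span, to show whether its values differ from those of the same stretch of chromosome. Around RGS20, 94 other regions had a median deposited log2 fold change of 0.09 with 59.6% above 0, and the 6 tested ones among them had a median of -0.01 and a lowest value of -0.18. The surroundings of RGS20 were therefore also below the median of all nuclear regions, 0.23. As the low region inside the gene has the lowest value of all tested regions, no tested surrounding region could lie below it. The surroundings of RGS2 (0.11 over 161 regions) and RGS17 (0.14 over 78) were low as well. RGS19 and its 51 neighbours had nearly equal medians, 0.48 and 0.47, and the gene ends 0.248 Mb before the end of the last listed region of chromosome 20. RGS12, 3.29 Mb from the start of chromosome 4, had 0.51 beside 0.32 around it. RGS7 (0.41 beside 0.23) and RGS17 (0.35 beside 0.14) exceeded their surroundings, and RGS3 (0.13 beside 0.29) and RGS16 (0.15 beside 0.34) were below theirs. Over tested regions alone, RGS7 (0.42 beside 0.15), RGS17 (0.07 beside 0.02) and RGS16 (0.29 beside 0.37) kept these directions. RGS3 did not, with 0.26 over 2 tested regions beside 0.22 over 16 around it. Of the 134 tested surrounding regions, 0 had an adjusted p under 0.05 in the authors' deposited table (DESeq2), beside 1.02% of all tested regions. At an unadjusted p under 0.05, 17 of the 134 (12.7%) were higher and 0 were lower, beside 14.8% and 0.107% of all tested regions. The part of position along the chromosome in these medians was not tested.

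**Figure D5:**
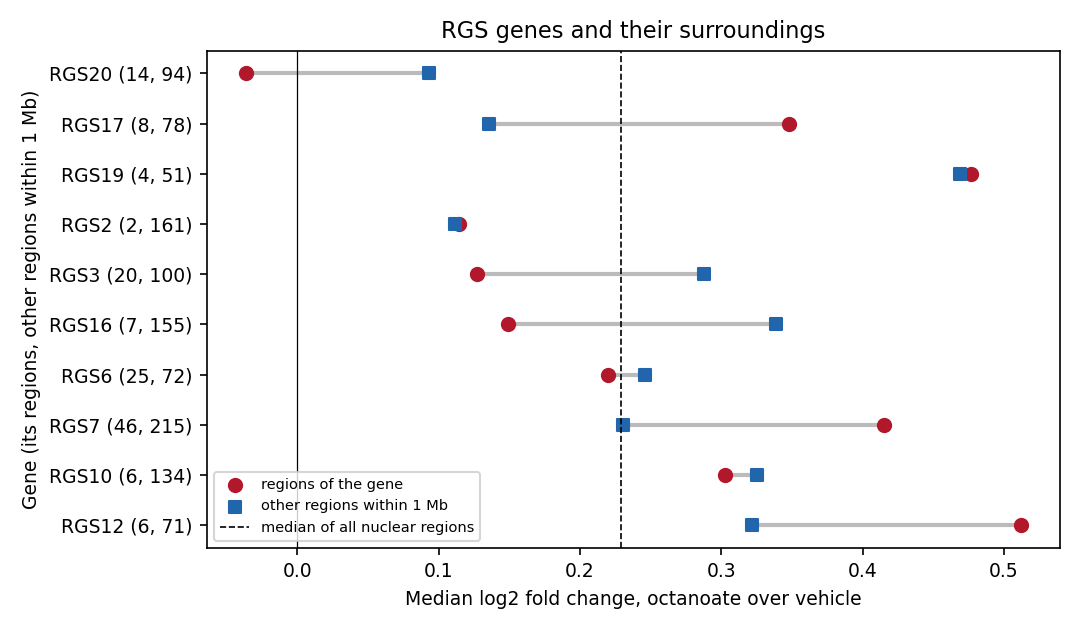
Median deposited log2 fold change of octanoate over vehicle (x axis) for the regions of each RGS gene (red circles) and for the other regions within 1 Mb (blue squares); brackets give the numbers of regions, and the dashed line is the median of all nuclear regions, 0.23. RGS20 and its surroundings have low medians, -0.04 and 0.09, and RGS19 and its surroundings high ones, 0.48 and 0.47.

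The 20 outermost regions inside the 10 kb limit that defines the RGS regions had deposited log2 fold changes of -0.32 to 0.92, with a median of 0.13. The 20 nearest regions outside it had -0.41 to 1.00, with a median of 0.33. The inside regions were not all in the flanks, and included the tested start regions of RGS2, RGS7, RGS10, RGS12 and RGS17, with means of 74.3 to 324. The medians therefore do not compare regions of 1 kind, and their difference was not tested. At RGS20 the nearest outside regions lay 29.5 and 41.7 kb from the span and were listed at 0.36 (standard error 0.52) and -0.16 (standard error 0.81).

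The regions most like the low RGS20 region were taken as the 5 tested regions with the lowest Wald scores outside the RGS genes. The nearest was a region on chromosome 1 (178048181 to 178049314), 10.2 kb from CRYZL2P-SEC16B, with a score of -3.29, a deposited log2 fold change of -0.75 (standard error 0.23) and an adjusted p of 0.0664 (DESeq2). The next scores were -2.59, 106 kb from LYPLAL1, then -2.45, 90.5 kb from KCTD3, then -2.38, within the channel gene TRPM3, and -2.24, 1.87 kb from ESRRG, which encodes an orphan nuclear receptor. Their deposited log2 fold changes ran from -0.75 to -0.51.

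Other RGS genes and genes that work with RGS proteins gave 0 regions past the threshold, beside 1.02% of all tested regions. Few of their regions were tested, so this 0 is not read as a result about these genes. The counts above 0 stand beside 72.1% of all nuclear regions and 85.7% of all tested nuclear regions. The 11 other RGS genes (RGS1, RGS4, RGS5, RGS8, RGS9, RGS11, RGS13, RGS14, RGS18, RGS21 and RGS22) had 74 regions with a median deposited log2 fold change of 0.19, 52 of them above 0. Only 4 of these were tested, in RGS5, RGS8, RGS9 and RGS14, with deposited log2 fold changes from -0.06 to 0.37, and 0 of the 4 had an unadjusted p under 0.05. Among all 74 regions 3 were higher at that level, in RGS8, RGS9 and RGS13, and 1 was lower, in RGS5, beside 3.58% and 0.179% of all regions; these genes are named after their values were seen. The 27 genes of G protein subunits and partners had 168 regions with a median of 0.16, 113 of them above 0, and 3 were higher and 0 lower at an unadjusted p under 0.05. Of their 26 tested regions 21 were above 0, and 1 had an unadjusted p under 0.05, beside the 14.8% of tested regions that were higher. It lies within GNAS, the gene of the stimulatory G alpha subunit (chromosome 20, 58850680 to 58852090), with a deposited log2 fold change of 0.56 (standard error 0.26) and an adjusted p of 0.267 (DESeq2). GNAZ, which encodes the G alpha subunit preferred by RGS20, had 5 regions, none tested, with a median of 0.17. GNB5, the partner of RGS6 and RGS7, had 4 regions with a median of 0.34, and its tested one was listed at 0.27 in the authors' deposited table.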

How the data were processed

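ATAC-seq libraries of A375 cells (2 per group, grouped by sample title) were compared through 1 deposited table. Per the submitters' processing notes the tools were Trim Galore, cutadapt, FastQC, Bowtie2, Picard, MACS2, featureCounts, DESeq2 and bedtools 2.29.1, and the build was hg38; their settings, any Tn5 shift and how regions were merged are not given in the sources used here. The deposited signal is a normalized read count averaged over the 4 libraries. The deposited log2 fold change, its standard error and the Wald score are of octanoate over vehicle, and the score equalled the ratio of the other columns to within 2.31e-14. The deposited p-value is unadjusted, and the deposited adjusted p-value equalled Benjamini-Hochberg adjustment over 11185 regions; the other 114801 are listed at 1 and were treated as not tested. The table has 0 columns per library, so library depth is unknown and no counting interval is given.

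Coordinates count from 1. The mitochondrial region starts at 0 in the table, so 1 was added to each start. Genes and starts came from RefSeq GRCh38.p14 tables. The 95% intervals are the fold change plus and minus the normal quantile times the deposited standard error. Implied levels assume that the 4-library mean is the average of the group levels and that their ratio is the deposited fold change. Centring and adjustment were tested on simulated data. Python 3.11.15, pandas 2.3.3, numpy 2.4.6 and scipy 1.17.1 were used.

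For RGS20 no start was available in the tables used. Each of the 10 genes was described by a rule: number of regions, median, start region, region of highest mean and tested region of lowest p, every tested RGS20 region, and the 5 other tested regions with the lowest Wald scores. Other regions given by value, among them weak regions of RGS3, RGS7, RGS10, RGS12 and RGS17, were chosen after their values were seen. The members and gene lists were chosen with earlier results of these data known. Alternatives covered the threshold, the adjustment, centring, the extension, the overlap and weak regions. The values of 1 tested RGS region are not reported here.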

Additional observations from a re-analysis of the deposited data

How the results depend on the processing

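The count of 0 RGS regions past the threshold stayed at 0 with no extension of the gene spans, with 50 kb, with at least 50% overlap, at an adjusted p under 0.01, with adjustment over all regions and, added after seeing the data, without regions that overlap another protein-coding gene. It became 1, the low RGS20 region, at an adjusted p under 0.1 and after centring on the tested median. The shares of all tested regions past the threshold at these settings were not counted, so this 1 has nothing beside it. After centring, the low region had a log2 fold change of -0.96 and a Benjamini-Hochberg adjusted p of 0.0342. With adjustment over all regions as deposited, its adjusted p was 0.379. The low region was chosen by its fold change, so neither p supports a call. Centring moved the median of all RGS regions to 0.039, reversed that of the tested ones to -0.0035 and moved that of RGS20 to -0.22, because 0.19 is subtracted from each. Under the other settings these medians moved by less than 0.1, and leaving out each gene in turn gave 0.21 to 0.24 for all RGS regions. No paired analysis was possible because single libraries are not listed, and leaving out each replicate was not run for the same reason. Regions under a mean of 63.8 have no usable adjusted p, so RGS6 and RGS19 have none.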
